A study of Synthetic plasmid and Mus musculus with 4 samples.

Results

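Reporter constructs carrying genomic fragments of at least 580 bp that cover the whole 300 bp window of their target site were compared with constructs of more than 400 and less than 580 bp covering the same window. The comparison asks whether extra flanking DNA adds to or takes away from the activity of the site. Members were chosen from the table of fragments by length, by an overlap of 300 bases with the window, by class and by delivered DNA, with at least 10 counts in each of the 3 DNA libraries of the tissue. Of the 45670 constructs in the library, 931 met the rule. They were 486 constructs of class R, read in retina, and 445 of class B, read in cortex. In the whole library 576 R and 507 B constructs had the length and the overlap, so 486 of 576 and 445 of 507 also passed the DNA minimum. Activity was not used to choose them.

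Fragments came from sonicated genomic DNA of C57BL/6J mice, were captured with RNA baits and were cloned next to a transcribed barcode, in 2 plasmid preparations. The retina group consisted of retinas of CD-1 mice electroporated ex vivo at P0 (postnatal day 0) and cultured for 8 days, in 3 biological replicates of 5 pooled retinas. The cortex group consisted of cerebral cortex of CD-1 mice given stereotactic AAV (adeno-associated virus) injections when 4 to 6 weeks old. GFP-positive regions were microdissected 4 to 5 weeks after injection, in 3 replicates of 1 animal. No transgene, Cre or promoter that would limit the reporter to a cell type is named in the labels, so each value averages over the cells that took up the library, and fewer active cells and less RNA per cell cannot be told apart. Barcodes alone were counted, so the tissue labels could not be checked against marker genes. The class letters are read from knowledge of the study as DNase hypersensitive sites of retina (R), brain (B), heart (H) and liver (L), and the tables themselves give only the letters. Library totals were 7025820 to 10411511 RNA and 6501061 to 12147398 DNA counts in retina, and 4000439 to 9674859 RNA and 3999412 to 10769648 DNA counts in cortex. No barcode read had a molecular identifier that was used here, so counts are of reads.

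An enhancer is a stretch of DNA that binds transcription factors and raises transcription from a promoter. Its core, where factors keep the chromatin open, is the part that a DNase hypersensitive site marks. Flanking DNA can hold further binding sites for activators or repressors, and in a massively parallel reporter assay the length of the cloned piece decides how much of that flank is tested. The RNA made from a barcode is divided by its DNA, since constructs are delivered in unequal amounts.

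Each construct is read only through its own barcode of 15 bases. The barcodes below belong to long constructs at sites whose results are described in detail, R349, R246 and R479 with summed long counts called higher than those of their references, R189 with summed long counts called lower, and B701 and B880 as the 2 cortex sites with the most RNA. Each is printed whole in lower case, with the position of its fragment on mm9, counted from 1. No bases are in capitals because no part of a barcode is set apart.

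R349 at chr5:108818571-108819163, plus strand: accacccttcacacc
R349 at chr5:108818554-108819187, minus strand: atcatctcactgtaa
R246 at chr11:80051666-80052277, minus strand: agttaattttgtgta
R246 at chr11:80051765-80052346, minus strand: ttcgcaacattctga
R479 at chr4:8767230-8767837, minus strand: aggaaatagtccttt
R189 at chr13:41339490-41340146, minus strand: ttccatttccctatt
R189 at chr13:41339561-41340174, plus strand: taactaattagccgt
R189 at chr13:41339665-41340296, minus strand: cataacccaatttaa
B701 at chr15:80108675-80109290, minus strand: taccgcccgctcgtc
B701 at chr15:80108756-80109352, minus strand: tgcgccacaaagaac
B701 at chr15:80108840-80109445, minus strand: tgctaacagctaaac
B880 at chr17:73621074-73621655, minus strand: ttcgcttctgtcgcc
B880 at chr17:73621088-73621709, minus strand: cgccaatagccaaat

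The long fragments carried more flank than the references on both sides of the window. Long R constructs had a median length of 609 bp and a maximum of 690 bp, against a median of 480 bp for the R references. In class B these lengths were 610, 688 and 481 bp. Flank on both sides together came to a median of 309 bp in long R constructs and 183 bp in their references, and to 308 and 183 bp in class B. The shorter flank of a long construct had a median of 73 bp in R and 78 bp in B, against 42 and 43 bp in the references. The longer flank had a median of 242 and 228 bp, against 134 and 131 bp. A target entered the comparison when it had at least 1 long and at least 2 reference constructs. That left 236 R targets with 436 long and 1782 reference constructs, and 210 B targets with 377 long and 1709 reference constructs. Of these, 129 R and 120 B targets had a single long construct. The same constructs were read in all 3 replicates, so an SD over replicates does not cover which fragments happened to be long.

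Long constructs carried less DNA than their references in every replicate. The log2 ratio of mean DNA counts per construct, long over reference, was -0.08, -0.16 and -0.13 in retina, a mean of -0.12 ± 0.04 (SD, n = 3). In cortex it was -0.26, -0.23 and -0.25, a mean of -0.25 ± 0.01. Activity below is always RNA relative to DNA. The part of unequal DNA in the results was not tested.

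In retina, long R constructs together made slightly less RNA than their references predicted. The prediction multiplies the long DNA of each target by the RNA to DNA ratio of its references and is summed over the 236 targets. Replicate 1 gave 346499 RNA counts against 363358 predicted, replicate 2 gave 304225 against 332793, and replicate 3 gave 480606 against 506840. Observed RNA was below the prediction in 3 of 3 replicates, at 0.954, 0.914 and 0.948 times, a mean of 0.939 ± 0.021 (SD, n = 3). On the log2 scale the mean was -0.09 ± 0.03 (exact sign-flip test over replicates, two-sided, p = 0.25, the smallest that 3 replicates allow). A few sites decide this sum. R288, R349, R189, R28 and R366 held 47.2% of the predicted RNA, and R349 alone gave 22.5% of the long RNA. Without R349 the mean log2 was -0.28 ± 0.08, and without R288, the site with the most predicted RNA, it was -0.05. Spanning R constructs were also split into bins of length, over other sets of targets. Bins under 580 bp ran from -0.30 ± 0.12 to 0.08 ± 0.30, with 300 to 400 bp at -0.28 ± 0.02. The bin of 580 to 609 bp was at 0.21 ± 0.14, and 610 bp or more at -0.42 ± 0.06. A shortfall in retina was therefore not particular to long constructs.

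In cortex, long B constructs made 0.829, 0.849 and 0.858 times the predicted RNA, a mean of 0.845 ± 0.015 (SD, n = 3). Replicate 1 gave 47563 counts against 57367 predicted, replicate 2 gave 66662 against 78537, and replicate 3 gave 118395 against 137998. The shortfall was present in 3 of 3 replicates, at a mean log2 of -0.24 ± 0.03 (exact sign-flip test, two-sided, p = 0.25, the smallest possible). B880, B701, B793 and B645 held 37.3% of the predicted RNA. Without B880 the mean was -0.20 ± 0.05. Long constructs of the H class fell short in cortex by as much, at -0.27 ± 0.02, and those of R and L were at -0.15 ± 0.25 and -0.06 ± 0.09. The difference between B and H was 0.03 ± 0.05 (exact sign-flip test, p = 0.5), and between B and L it was -0.18 ± 0.07 (p = 0.25), with B lower in 3 of 3 replicates. In the same bins of length, B constructs under 580 bp ran from -0.24 ± 0.04 at 521 to 550 bp to 0.32 ± 0.02. The bin of 580 to 609 bp was at -0.14 ± 0.09, and 610 bp or more at -0.40 ± 0.19. A shortfall of this size in cortex was thus also seen below 580 bp.

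When every target counted equally, the retina median had no direction that held in all replicates, while the mean was above 0 in 3 of 3. The median over 236 R targets of the mean log2 RNA/DNA of the long constructs minus that of the references was 0.01, -0.07 and -0.12 in the 3 replicates, a mean of -0.06 ± 0.07 (exact sign-flip test, p = 0.5). The mean over the same targets had the opposite sign, at 0.07 ± 0.07, and after averaging each target over replicates 125 of 236 targets had higher long constructs, with a median of 0.12. These differences had an SD of 1.59 across targets. In cortex the median over 210 B targets was -0.35, -0.49 and -0.16, a mean of -0.33 ± 0.17, below 0 in 3 of 3 replicates (exact sign-flip test, p = 0.25). The cortex mean was -0.14 ± 0.14, and 93 of 210 targets had higher long constructs after averaging. The other classes read in cortex had medians of -0.45 ± 0.18 in H, -0.34 ± 0.26 in L and -0.19 ± 0.28 in R, all of them below 0 as well. Read in retina, the other classes had medians of -0.18 ± 0.02 in B, -0.11 ± 0.06 in H and -0.20 ± 0.08 in L. Each was below 0, and below the R median, in 3 of 3 replicates. Of all long constructs of these 3 classes, 73.5% had no RNA in retina, so their levels mostly follow DNA counts.

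Length was also treated as a continuous measure within targets, across all spanning constructs over 400 bp. The slope per 100 bp was 0.003, 0.001 and -0.12 log2 units in the 3 retina replicates, a mean of -0.04 ± 0.07 (exact sign-flip test, p = 1). In cortex it was -0.14, -0.17 and -0.05, a mean of -0.12 ± 0.06, negative in 3 of 3 replicates (exact sign-flip test, p = 0.25). Class R and L slopes in cortex were also negative in 3 of 3 replicates, at -0.05 ± 0.04 and -0.03 ± 0.01. Class H was at -0.04 ± 0.04, and B was below each of the others in 3 of 3 replicates. In retina the B slope was negative in 3 of 3 too, at -0.07 ± 0.07, with H at 0.04 ± 0.05 and L at -0.01 ± 0.06. The members just outside and just inside the limit are given as a description. R constructs up to 5 bp shorter than 580 bp had a median log2 RNA/DNA of -3.997 over 45 constructs, and those from 580 bp to less than 5 bp above it -4.15 over 50. No RNA was read from 13 of the 45 and from 23 of the 50. In cortex these medians were -2.72 over 39 and -2.68 over 46 constructs, with 3 and 4 constructs without RNA.

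The share of constructs with any RNA was also close between long and reference constructs. In retina the average target had RNA for 40.1%, 47.3% and 45.8% of its long constructs and for 40.6%, 46.2% and 44.4% of its references. The difference was 0.66 ± 1.00 percentage points (exact sign-flip test, p = 0.5). In cortex the long shares were 60.5%, 59.1% and 72.4% and the reference shares 61.9%, 62.9% and 71.2%, a difference of -1.33 ± 2.47 points (p = 0.5, exact). Over the 3 replicates together, 162 of 436 long R constructs and 686 of 1782 references had no RNA, which is 37.2% and 38.5%. RNA appeared in all 3 replicates for 27.8% and 27.6% of them. In cortex RNA appeared in all 3 replicates for 30.8% of the long B constructs and 39.7% of the references. The share without any RNA went the other way there, at 9.02% and 10.3%. Long constructs had less DNA in both tissues, and its part in these shares was not tested.

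Most long fragments lay inside the spread of their own references. Of the 436 long R constructs, 311 (71.3%) had a mean log2 RNA/DNA between the lowest and the highest reference of the same target, 63 were above all references and 62 below all. Of the 377 long B constructs, 263 (69.8%) were inside, 48 above and 66 below. These shares depend on the number of references, a median of 6 per R target and 6.5 per B target. In retina 162 of the 436 long constructs and 686 of the 1782 references had no RNA, so their levels follow their DNA counts. The part of DNA in these positions and in the SDs below was not tested. The share that constructs without any effect of length would give was not computed, so the values are a description. Constructs of the same target also differed widely from each other within the long and within the reference side. The SD within a target was 1.66 log2 units among long and 1.70 among reference constructs in retina, and 1.93 and 1.72 in cortex.

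The longest construct of each class gave little RNA. The longest R construct, 690 bp at R322 on chr6:47345344-47346033, gave 65 RNA counts on 4469 DNA counts and a mean log2 RNA/DNA of -7.58 ± 2.62 (SD, n = 3). All 65 RNA counts came from replicate 3. The longest B construct, 688 bp at B295 on chr4:120563674-120564361, gave 2 RNA counts on 276 DNA counts and a mean of -4.89 ± 0.56, below all 9 of its references.

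The strongest long construct lay below the strongest reference in both tissues. Long constructs were taken from 486 in retina and 445 in cortex, references from 1782 and 1709 in shared targets. A maximum over more constructs tends to be higher, so this order says little about length. In retina the 5 highest were at R368 (597 bp, mean log2 RNA/DNA 7.16 ± 1.29), R62 (619 bp, 6.44 ± 2.17), R288 (617 bp, 6.28 ± 0.82), R246 (612 bp, 6.26 ± 0.72) and R349 (593 bp, 6.20 ± 0.45). Among R references the highest was 7.96. In cortex the 5 highest long constructs were at B701 (597 bp, 5.22 ± 0.27), B517 (589 bp, 4.64 ± 1.04), B880 (622 bp, 4.52 ± 0.66), B701 again (606 bp, 4.49 ± 1.00) and B880 again (582 bp, 4.36 ± 0.62), against 6.22 for the highest reference. The R246 and B517 constructs rest on 52 and 53 DNA counts over the 3 replicates, while the R349 construct has 3824.

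Single constructs were called active when RNA exceeded DNA past an adjusted p of 0.05 (edgeR quasi-likelihood test, adjusted over all constructs of the tissue). This held for 838 of 36005 constructs in retina, a background of 2.33%, and for 54 of the 486 long R constructs, which is 11.1%. The references had 352 of 2927 (12.0%), and in the 236 shared targets the shares were 11.7% for long and 10.9% for reference constructs. None of the 1295 long constructs of the other classes was called in retina. In cortex the background was 0.665%, with 10 of 445 long B constructs (2.25%) and 78 of 3018 references (2.58%) called. In the 210 shared targets the shares were 2.39% and 2.81%. With size factors of the relative log expression kind 8 long R and 11 long B constructs were called, so the R count depends on scaling. DESeq2, another test with its own scaling, called 110 and 47.

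Tested target by target, long R constructs were called different in both directions. The interaction of length and molecule was fitted to counts summed over long and over reference constructs (edgeR quasi-likelihood test, adjusted over 926 targets of all classes). Long constructs were higher in 6 of 236 R targets (2.54%, against a background of 5.51% over all classes) and lower in 51 (21.6%, against 33.2%). Most of the lower calls have no long RNA to compare. In 41 of the 51 the long constructs had no RNA count at all, and in 48 they lacked RNA in at least 1 replicate. Where both sides had RNA in all 3 replicates, 5 of 80 R targets were called higher and 3 lower, 21 were higher and 18 lower in 3 of 3 replicates, and the median difference was -0.00072 log2 units. Over all classes 87 targets had such RNA, 80 of them R, with the same 5 and 3 calls and with 21 higher and 20 lower in 3 of 3 replicates. Leaving out replicate 1 or replicate 3 left 0 calls in both directions, and leaving out replicate 2 gave 10 higher and 52 lower. TMM factors were set separately for the long and the reference counts of each library, so they shift these against each other. They changed the 926 differences by a median of -2.25 log2 units and gave 2 higher and 88 lower R targets.

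In cortex no B target was called in either direction by the same fit, and the background over 950 targets was 0% higher and 0% lower. At an unadjusted p under 0.05 there were 34 of 210 B targets and 180 of 950 targets of all classes. DESeq2 called 3 B targets higher and 52 lower, edgeR without the library block 2 and 14, and limma on construct means 0 and 0. Where both sides had RNA in all replicates, 15 of 91 B targets were higher in 3 of 3 replicates and 20 lower, with a median of -0.32 log2 units. Over all classes this held for 404 targets, 44 of them higher and 71 lower, with a median of -0.58.

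R349 had the most long RNA of the 236 R sites, and its long side was called higher. Its window lies at chr5:108818806-108819105. The ratio of RNA share to DNA share was 51.1, 73.6 and 72.2 for its 2 long constructs and 37.1, 32.3 and 34.6 for its 4 references. The groups did not overlap, and the fitted difference was 0.90 ± 0.27 log2 units (SE, edgeR adjusted p = 0.0451). As single constructs, the long ones had mean log2 values of 5.13 and 6.20, inside the reference range of 4.64 to 6.39. Without the top construct of each side the difference was -0.04, so its direction rests on its top constructs. With TMM factors, which shift long against reference counts of the same library, it was -0.76. The value was 0.03 at a limit of 600 bp, and DESeq2 did not call it (adjusted p = 0.137).

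At R246 the same ratio was 26.9, 35.5 and 38.5 for 2 long constructs and 6.61, 6.50 and 5.86 for 8 references. All 3 long values lay above all reference values, a fitted difference of 2.39 ± 0.42 (SE, edgeR adjusted p = 0.0143). The long constructs, whose window is at chr11:80051866-80052165, have 288 DNA counts in all, against 9845 for the references. The 612 bp construct, at 6.26 ± 0.72, was above all 8 references (0.36 to 4.94), and the 582 bp construct, at 4.30 ± 0.55, above 7 of them. Both overlap along most of their length and were called active. The difference fell to 0.73 with TMM factors (edgeR adjusted p = 0.242). With replicate 1, 2 or 3 left out the call was lost as well (edgeR adjusted p = 0.0502, 0.0556 and 0.0779). It was also lost without the top construct of each side, at 1.72 (adjusted p = 0.0690, edgeR), and with limma (adjusted p = 0.197).

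At R479 and R583 the long constructs stood above every reference, and both calls depend on the processing. At R479 the single long construct of 608 bp had ratios of 84.6, 146 and 14.7, and its 8 references 8.16, 16.5 and 10.5. Replicate 3 of the long construct lay below replicate 2 of the references. The fitted difference was 2.34 ± 0.71 (SE, edgeR adjusted p = 0.0480). With TMM factors it was 0.68 (edgeR adjusted p = 0.501), without replicate 2 it was 1.92 (adjusted p = 0.217), and limits of 560 or 600 bp or no DNA minimum also ended the call. Its mean log2 of 5.78 exceeded the reference range of -0.71 to 4.04. At R583 the 2 long constructs had ratios of 6.14, 23.9 and 7.55 and the 12 references 1.20, 3.09 and 1.09, with no overlap and a difference of 2.70 ± 0.79 (adjusted p = 0.0430, edgeR). It was 1.04 with TMM factors (edgeR adjusted p = 0.282), and the call was lost at 600 bp and with any 1 replicate left out. The long constructs stood at 3.42 and 3.15, above a reference maximum of 1.36, and no reference of R583 was called active while 1 long construct was.

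The other 2 higher calls were at sites of low level. R584 had long ratios of 0.327, 0.0244 and 0.00891 on a single construct with 6699 DNA counts, and its 6 references gave 8 RNA counts in all, with none in replicate 3. R952 had long ratios of 0.108, 0.108 and 0.386 and reference ratios of 0.0109, 0.0114 and 0.0520, a difference of 3.14 ± 0.41 (SE, edgeR adjusted p = 0.0143). With TMM factors this was 1.48. No construct of either site was called active.

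R189, R28 and R277 were the 3 lower calls with RNA on both sides in every replicate, and they were singled out for that after their values were seen. At R189, with its window at chr13:41339706-41340005, the 3 long constructs had ratios of 4.83, 5.96 and 13.2 and the 16 references 29.04, 25.3 and 38.0. The groups did not overlap, and the long side fell by 2.07 ± 0.23 log2 units (SE, edgeR adjusted p = 0.0143). One by one, the long constructs stood at 2.59, 2.85 and 4.31, within the reference range of 2.25 to 5.91, and the 614 bp construct with 3811 of the 4559 long DNA counts sets the sum.

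At R28 the 3 long constructs had ratios of 8.71, 6.91 and 12.2 and the 13 references 30.7, 19.3 and 19.9, without overlap. The difference was -1.33 ± 0.28 (SE, edgeR adjusted p = 0.0170). All 3 long constructs were called active and lay within the reference range of 2.15 to 5.73. At R277 the single long construct of 659 bp had ratios of 0.748, 0.848 and 0.337, against 8.68, 3.36 and 3.59 for 9 references. The difference was -2.99 ± 0.62 (adjusted p = 0.0169, edgeR), and the construct stood above 1 of its 9 references. TMM factors gave -3.72 at R189, -2.99 at R28 and -4.67 at R277, and the R28 call was lost without the top construct of each side (-0.94) and with any 1 replicate left out.

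The 10 lowest called R targets, R867, R703, R628, R347, R503, R959, R862, R29, R533 and R698, were sites where long barcodes were delivered and almost no RNA was read. Only R703 had any long RNA, 2 counts on 2003 DNA counts. R867 had 0 long RNA counts in each replicate on 173, 172 and 194 DNA counts, against 1277, 1496 and 2774 reference RNA counts on 1821, 1108 and 2041 DNA counts. With 3 counts over the 3 RNA libraries as the limit that a count of 0 allows, the long side of R867 was at least 201-fold lower. This bound covers counting error only. Over the other 8 sites without long RNA the same bound ranged from 44.6-fold at R698 to 105-fold at R628. These sums rest on 1 or 2 long constructs each. At a limit of 560 bp, which adds constructs to the long side, the fitted log2 difference went from -9.71 to -5.29 at R628, from -9.27 to -2.09 at R503, from -9.04 to -0.50 at R959 and from -9.02 to 2.40 at R29, and all 4 calls were lost. R29 was at -3.46 without replicate 2, and its call was lost there too. References were not uniformly active there either. At R628, 8 of 12 references had no RNA, at R698 6 of 10, and no construct of these 10 sites was called active. At R703 the long construct of 609 bp, at -7.72, lay below all 17 references, which ran from -5.75 to 2.44. With almost no RNA such a level follows the DNA count. The 17 references had 10626 DNA counts in all, and 3 of them had no RNA, so this order is not only one of activity.

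The sites with the most predicted RNA that were not called show the size of the spread. At R288 the 3 long constructs had ratios of 46.2, 24.9 and 61.4 and the 7 references 70.9, 47.4 and 54.4, which overlap, for a difference of -0.46 ± 0.27 (SE, edgeR adjusted p = 0.267). All 10 of these constructs were called active. At R366 the single long construct had ratios of 32.4, 58.4 and 29.1 and the 8 references 62.7, 62.3 and 85.2. All long values were below all reference values, and the difference of -0.87 ± 0.42 did not pass (edgeR adjusted p = 0.175).

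R530 and R404, each with 4 long constructs, had the most long constructs among sites with an active call. At R530 the long constructs of 588, 668, 625 and 600 bp stood at 2.42 ± 3.21, 4.31 ± 0.79, 4.39 ± 0.57 and 3.46 ± 0.70 (SD, n = 3), and 20 references ran from 0.41 to 4.53. The last 3 carried nearly all of their flank to the right of the window by mm9 position, 342, 300 and 298 bp of it. The first and lowest carried 266 bp to the left and 22 bp to the right. The difference over the site was 0.63 ± 0.28 (SE, edgeR adjusted p = 0.135). At R404 the constructs of 599, 610, 581 and 603 bp stood at 2.05 ± 2.225, 1.76 ± 1.81, 5.21 ± 0.79 and 5.32 ± 0.74. They fall into a low and a high pair. The low pair had 297 and 234 bp of flank to the left of the window, by mm9 position, and the high pair 143 and 45 bp. Its 4 references ran from 2.63 to 6.06, and the site's difference of -0.72 ± 0.31 did not pass (edgeR adjusted p = 0.134). The order was the other way at R288, where the highest long construct, at 6.28, had 300 bp of flank to the left. Its other long constructs, at 4.33 and 4.52, had 169 and 72 bp. The side of the flank was not tested at single sites.

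The R sites with the most long constructs had no construct called active, and their medians were below 0 on both sides. They were not all low for the class. R300 had medians of -2.87 (long) and -3.26 (reference), against -4.29 and -4.34 over all shared R targets. R457 had 7 long constructs from -7.05 to -2.45 with a median of -5.16, and 17 references from -6.44 to -0.67. R907 had 6 long constructs from -6.04 to -0.11, R772 6 from -6.64 to -3.05, R598 6 from -7.07 to -4.53 and R300 6 from -4.11 to 1.96. None of these 5 sites was called. Replicates disagreed at R300, where the long side minus the reference side was 1.27, -1.03 and 3.33 log2 units.

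In cortex, B880 and B701 carried the most RNA and their long constructs were all called active. At B880, with its window on chromosome 17, the 2 long constructs had ratios of 15.7, 22.5 and 26.2 and the 4 references 33.0, 29.2 and 25.2. These overlap, for a difference of -0.46 ± 0.37 (SE, edgeR adjusted p = 0.566). At B701 the 3 long constructs had ratios of 31.5, 17.4 and 14.6 and the 15 references 29.4, 21.8 and 23.8, a difference of -0.31 ± 0.24 (adjusted p = 0.551, edgeR). The 597 bp construct of B701, at 5.22, was above all 15 references, while the 616 bp construct, at 2.95, was above 1. The latter reached 191 bp to the left of the window by mm9 position, and the former 110 bp. The third, of 606 bp, reached only 26 bp to the left and stood between them, at 4.49.

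B793 and B645, the next sites by predicted RNA, had lower summed ratios on the long side in every replicate. At B793 the single long construct of 647 bp had ratios of 16.5, 12.6 and 8.82, below 32.2, 25.1 and 24.3 for its 9 references in every replicate, at -1.14 ± 0.24 (SE, edgeR adjusted p = 0.0888). B645 followed with 15.2, 2.02 and 9.83 against 30.7, 19.3 and 18.998, at -1.72 ± 0.62 (adjusted p = 0.198, edgeR). As single constructs, the long fragment of B793 stood at 3.60, above 2 of its 9 references. That of B645 stood at 2.74, above 4 of its 7 references, which ran from -0.16 to 5.37. B951 had ratios of 10.8, 3.13 and 6.13 against 2.81, 5.51 and 4.47, which overlap. At B442 the 2 long constructs, of 619 and 650 bp, stood at -2.47 ± 4.46 and 0.88 ± 1.04, and the site's difference was -0.92 ± 0.52 (adjusted p = 0.435, edgeR).

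B785, B998 and B812, singled out after their values were seen, had wide gaps between long and reference constructs. B785 had long ratios of 2.53, 4.16 and 3.71 and reference ratios of 0.344, 0.601 and 0.357, a difference of 3.02 ± 0.75 (SE, edgeR adjusted p = 0.0888). Both of its long constructs stood above all 4 references. B998 had 1047 RNA counts on 1 long construct and 2 RNA counts on 2 references. B812 had 0 RNA counts on 232 long DNA counts and 4814 RNA counts on its 8 references, so it was at least 72.7-fold lower, by the same limit of 3 counts. None passed the adjusted threshold.

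The B sites with the most long constructs also had no construct called active and medians below 0. The long medians of B101 (-1.54), B760 (-1.75) and B247 (-1.82) lay above that of all long B constructs in shared targets (-2.42). Those of B24 and B347 lay below it. B24 had 10 long constructs from -5.22 to 1.05 with a median of -2.90, and 38 references from -5.41 to 2.16 with a median of -1.99. Its site difference was -0.24 ± 0.58 (SE, edgeR adjusted p = 0.839). The highest of the 10 was 676 bp long, with 191 and 185 bp of flank. B760 had 7 long constructs from -4.76 to -0.02, and its 2 constructs of 662 bp stood at -4.72 and -0.68. B101, B247 and B347 had 6, 5 and 5 long constructs, and none was called.

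Within the long constructs, 3 length classes were compared. In retina the observed over predicted log2 RNA was 0.31 ± 0.07 for 157 constructs of 580 to 599 bp, -0.41 ± 0.08 for 126 of 600 to 619 bp and -0.25 ± 0.16 for 153 of 620 bp or more (SD, n = 3). The first value rests on the 593 bp construct of R349. Without R349 it was 0.24, -0.23 and -0.22 in the 3 replicates, a mean of -0.07 ± 0.27, and the second class, which holds no R349 construct, was unchanged at -0.41. Counting targets equally, the mean differences were 0.35 ± 0.07 over 122 targets, 0.07 ± 0.12 over 107 and -0.01 ± 0.29 over 111, so the shortest class was also above 0 where no single site weighs more than another. In cortex the 3 classes were at -0.16 ± 0.48, -0.26 ± 0.34 and -0.32 ± 0.11, and their SDs overlap.

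Where the flank lay was also compared, reading each fragment along its listed strand. The orientation of that strand relative to the reporter's promoter is not given in the sources used here. In retina the log2 observed over predicted RNA was -0.44 ± 0.03 for 238 constructs with the longer flank after the window and 0.13 ± 0.06 for 197 with it before. Without R349 these values were -0.48 ± 0.09 and -0.12 ± 0.19. In cortex they were -0.35 ± 0.16 for 181 and -0.13 ± 0.09 for 193 constructs, and -0.29 ± 0.10 for the former without B880. Counting targets equally gave no such order in retina, at 0.11 ± 0.25 after and 0.03 ± 0.13 before the window. Constructs with at least 100 bp of flank on both sides were at -0.58 ± 0.43 in retina and -0.12 ± 0.06 in cortex, and the rest at 0.06 ± 0.11 and -0.30 ± 0.07. Without R349 the rest of the retina constructs were at -0.16 ± 0.06. Counting targets equally, retina constructs with at least 100 bp on both sides were at 0.00006 ± 0.17 and the rest at 0.09 ± 0.04. The low sum in retina therefore did not hold where no single site weighs more than another. In cortex these means were -0.001 ± 0.10 and -0.14 ± 0.12.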

How the data were processed

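The authors deposited raw barcode counts for 3 RNA and 3 DNA libraries per tissue and a log2 RNA/DNA ratio, per the file headers, and a fragment table of positions, lengths and reads per barcode (at least 10), per the file headers. The build mm9 and the tools bedtools 2.22.1, SAMtools 0.1.19, Bowtie2 2.1.0 and FastQC are listed without a role in the submitters' processing notes. How barcodes were counted is not given in the sources used here. Both copies of the fragment table were identical and were used once. No genome or gene annotation was used here.

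Windows were found from fragments covering part of them. Target counts were summed over long and over reference constructs and tested with edgeR 4.0.16 (R 4.3.3, quasi-likelihood F test, library block, library totals as offsets, Benjamini-Hochberg, threshold 0.05). The block pairs long and reference counts of the same library. Constructs were tested as RNA against DNA with the replicate as a block, since the labels take both from the same tissue. SEs came from the fold change and F. Construct levels are log2 RNA/DNA with a prior count of 2, relative to library totals. The level of a construct without RNA is therefore lower the more DNA it has. Alternatives used DESeq2 1.42.0, limma 3.58.1 and other limits. Python 3.11.15, numpy 2.4.6 and pandas 2.3.3 did the rest. The fits were tested on simulated data, where fold sizes were recovered but few changes were called at the fitted dispersions, so a missing call says little about a site. The real fit still called many targets whose long constructs had no RNA, which the simulation did not, so these calls are less certain than their adjusted p.

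Members and lists were chosen with earlier results of these data known. Named targets are the 10 largest called differences in each direction, the 5 with the most long constructs, the 5 highest long constructs, the longest one and the 2 active targets with the most long constructs. Others are said to be chosen after their values were seen, or are the sites with the most predicted RNA.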

Additional observations from a re-analysis of the deposited data

Results flagged for a closer look

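The mean over targets of long minus reference log2 RNA/DNA was positive in all 3 retina replicates for R targets, at 0.153, 0.0229 and 0.0448 (mean 0.0737), and negative in all 3 cortex replicates for B targets, at -0.151, -0.278 and -0.00129 (mean -0.143). The 2 means come from different sites in different tissues, and their difference was not tested.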

How the results depend on the processing

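The log2 of observed over predicted RNA stayed below 0 in both tissues under every alternative run, but its size moved. In retina (main value -0.09) it was -0.25 at a limit of 560 bp, -0.35 at 600 bp, -0.14 without a DNA minimum, -0.15 with references up to 500 bp, -0.21 without the top construct of each side, -0.0481 without R288 and -0.28 without R349. In cortex (-0.24) it was -0.29 at 600 bp, -0.17 at a DNA minimum of 20, -0.19 without one, -0.31 with references up to 500 bp, -0.0858 with at least 2 long constructs, -0.29 without the top constructs and -0.20 without B880, which has the most predicted and the most long RNA. The retina median target difference (-0.06) was -0.17 at 600 bp and -0.17 without a DNA minimum. It changed sign to 0.12 with at least 2 long constructs, 0.0366 without the top constructs, 0.0103 at a prior count of 0.5 and 0.0737 as a mean. The cortex median (-0.33) was -0.15 at 560 bp, -0.0763 with at least 2 long constructs, -0.14 as a mean and 0.0034 from the authors' deposited log2 ratios. The retina slope was -0.13 without a DNA minimum and 0.00196 without replicate 3, and its range over left-out replicates was -0.061 to 0.00196. The slope uses no length limit, so that limit gave it no alternative. The share with RNA moved in retina (0.66 points) to 2.47 at 600 bp, 1.76 with references up to 500 bp and 1.92 with at least 2 long constructs, and in cortex (-1.33) to -3.81 at 600 bp and 1.14 without a DNA minimum.

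Counts of R targets called higher (6) were 3 at 600 bp, 15 with references up to 500 bp, 11 without the top constructs, 2 with TMM factors, 11 with DESeq2 and 0 with limma. Those called lower (51) were 18 with at least 2 long constructs, 88 with TMM factors, 0 with limma and 3 where both sides had RNA throughout. Without the replicate block 1 R target was higher and 14 lower, and in cortex 2 B targets were higher and 14 lower. Leaving out each replicate gave 0 to 10 higher and 0 to 52 lower R targets. In cortex (0 and 0) 5 were higher and 21 lower without the top constructs, and 3 and 52 with DESeq2. Active long R constructs (54) numbered 8 with RLE size factors, 110 with DESeq2 and 27 to 33 with a replicate left out. Active long B constructs (10) numbered 17 without the replicate block and 47 with DESeq2. R349 changed sign to -0.0414 without its top constructs and -0.76 with TMM factors, and R29 to 2.40 at 560 bp. The alternatives without single targets, the mean over targets and the count of targets with RNA throughout were chosen after seeing the data. The cause of these changes was not tested.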

Other observations

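Sites were also sorted by their references alone, which makes the reference side high or low by choice, so the values are a description. In the 28 R targets where at least 0.5 of the references were called active, 42 of 51 long constructs were also called and all 51 had RNA in every replicate. In the 191 R targets without an active reference, 4 of 357 long constructs were called and 162 had no RNA. In cortex 6 of 8 long constructs were called in the 5 B targets of the first kind, and 1 of 350 in the 193 of the second kind.

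Some R sites with several long fragments gave no or almost no long RNA. All 5 long constructs of R504, 580 to 629 bp, had 0 RNA counts on 4464 DNA counts, and 10 of its 13 references had none either. The 5 long constructs of R497 gave 21 RNA counts on 2104 DNA counts, while its 18 references gave 8666 on 13666.

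The R targets named as higher or lower in retina were also fitted in cortex, where no target of any class was called. R349 was at -0.68 ± 1.23 log2 units, R246 at -1.33 ± 2.18, R189 at 0.27 ± 0.56 and R28 at -0.51 ± 0.69 (SE). R867 was at 3.67 ± 1.10 and R959 at -8.46 ± 1.10 (edgeR adjusted p = 0.129 and 0.0888). R862, R503 and R628 were also below 0, at -7.41 ± 1.42, -5.66 ± 1.85 and -4.81 ± 2.24. So were R703, R347 and R29, at -3.84 ± 1.93, -3.00 ± 1.68 and -1.73 ± 3.04. R533 and R698 were above 0, at 3.34 ± 2.74 and 4.96 ± 2.44. Whether these differ from the retina values was not tested.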
